A study of Rattus norvegicus with 24 samples.

Results

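The peptidergic signalling genes Tac1, Calca, Calcb and Scg2 were followed in single neurons of the rat dorsal root ganglion (DRG). They were chosen by name, 4 of the 32881 genes common to the count tables. They were read in 1433 of 1464 cells, which passed limits of 500 detected genes, 1000 UMIs and a mitochondrial share below 5%. In the annotation used by the tables they are Tac1 (ENSRNOG00000007374), Calca (ENSRNOG00000011130), Calcb (ENSRNOG00000011074) and Scg2 (ENSRNOG00000015055). A UMI is a molecular tag that lets PCR copies of one transcript be counted once, and CPM is a gene's UMIs scaled to a total of 1000000 UMIs.

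Tac1 encodes the precursor of substance P and neurokinin A, and Calca and Calcb encode the precursors of the alpha and beta forms of calcitonin gene-related peptide (CGRP). Scg2 encodes secretogranin II, an acidic protein of the dense core granules in which such peptides are stored. Unmyelinated and thinly myelinated nociceptors release substance P and CGRP from their central and peripheral endings, where the first acts on the neurokinin 1 receptor and the second on a receptor made of Calcrl and Ramp1. Calca also gives rise to calcitonin by splicing, and counts per gene do not separate the products. Calca and Calcb are close paralogs and neighbours on chromosome 1 in the RefSeq annotation of GRCr8, so reads from their shared sequence could be divided between them in an uncertain way.

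All animals were male SD rats (age not given in the sources used here), and the neurons came from lumbar DRGs. In spared nerve crush (SNC) the tibial and common peroneal branches of the sciatic nerve are crushed and the sural branch is left intact, and in sham surgery the nerve is exposed without crush. The labelled neurons, in all 4 of their groups including sham, had taken up a retrograde dye before surgery and were picked by hand, so the mix of neuron types also reflects picking. There were 4 sham DRG samples (215 neurons), 4 at SNC 1 d (238), 3 at SNC 3 d (237) and 5 at SNC 7 d (240), and 7 added sham libraries (503 neurons) that were deposited as new libraries and labelled day 0, 1, 3 or 7. Dye labelling and library set cannot be told apart in the added libraries. The tables give no dye for a cell, so crushed and intact neurons of a sample are pooled. No label ties the samples to separate animals, so p-values measure the spread between these samples.

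Sample totals ran from 4002503 to 40732975 UMIs, with a median of 170621 to 492066 UMIs per neuron. Sham replicate 1 stood apart, with the lowest level of each member among the labelled samples and the highest summed level of 5 satellite glia markers (1113 CPM against 209 CPM in the lowest sham sample). SNC 7 d replicates 1 and 2 were libraries of one DRG sample and were summed, although the second was lower in Tac1 (350.3 against 652.1 CPM) and Calca (373.9 against 1117 CPM). The injury genes Gal, Atf3 and Sprr1a had means of 1198, 580 and 152 CPM in the labelled sham samples and 7.36, 154 and 0.0319 CPM in the added sham libraries. Group means after SNC ran from 773.3 to 1045 CPM for Gal, 510.7 to 547.3 CPM for Atf3 and 144.4 to 167.0 CPM for Sprr1a. The labelled sham is therefore not a baseline low in injury genes, and the reason was not tested. In the summed levels of a sample, fewer cells of a type and less RNA per cell cannot be told apart.

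The promoter sequences are shown because the members varied together from cell to cell and the cyclic AMP response element is a classical control element of neuropeptide genes. RefSeq sequence of GRCr8 was at hand for 3 members, and the 250 bases before the annotated start were searched on both strands for the full site TGACGTCA and for its half-site TGACG, which the full site contains. Each stretch below is 30 bases on the gene's strand, 5′ to 3′, with the matched letters in capitals (CGTCA is the half-site on the other strand).
Tac1, chr4:36645365-36645394, plus strand: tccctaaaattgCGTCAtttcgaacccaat
Calca, chr1:178317624-178317653, minus strand: gaagcaccgaggTGACGcaatctgtctggg
Scg2, chr9:88256971-88257000, minus strand: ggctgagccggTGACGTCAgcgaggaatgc

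The half-site began 206 bases before the start in Tac1, 112 in Calca and 123 in Scg2, and Scg2 alone of these 3 held the full site. Of 33469 promoters in the table, 18.2% held the half-site and 1.59% the full site. A match describes the letters and not binding of a factor. Calcb was not analysed here for promoter sequence.

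All members were abundant neuronal transcripts. Calca ranked 30 of 32881 genes by mean level over the 23 DRG samples (1185 CPM, samples from 290.8 to 2222), and Tac1 ranked 158 (614.8 CPM, from 83.2 to 1139). Calcb ranked 406 (421.3 CPM, from 27.98 to 740.5) and Scg2 ranked 478 (389.3 CPM, from 152.4 to 581.5). The tables count the 3′ end of each transcript, so these levels need no correction for length. At least 1 UMI was present in 99.7% of neurons for Calca, 98.4% for Tac1, 97.7% for Scg2 and 95.9% for Calcb.

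Such near-universal detection has to be read against the level in the lowest cells of each library. The 5th percentile of Tac1 over the cells of a library ran from 0 to 199.7 CPM, and that of Calca from 14.7 to 494.2 CPM. It reached 194.4 CPM for Tac1 in sham replicate 4 and 4.40 CPM in SNC 7 d replicate 2. Somatostatin (Sst), a peptide of itch neurons, served as a gene of restricted expression. Outside the SST-like clusters 0% to 17.3% of neurons of a cluster reached 100 CPM, although 40.5% to 97.2% held at least 1 Sst UMI. Presence of a UMI is therefore not read as expression below. The cut of 100 CPM for a positive cell lies under the lowest cells of several libraries, and a cut of 1000 CPM was added after these levels were seen. The source of the low counts was not tested.

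**Figure D1:**
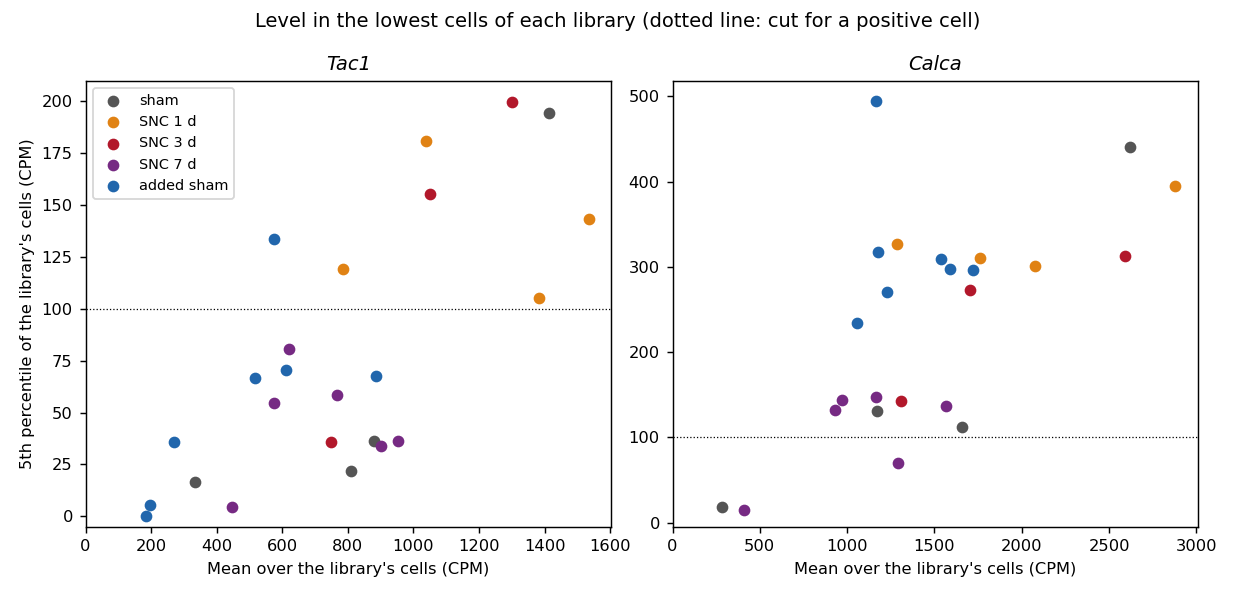
Level of Tac1 and Calca in the lowest cells of each of 24 libraries: the vertical axis is the 5th percentile over the library's neurons (CPM), the horizontal axis the mean over its neurons (CPM), and the dotted line the 100 CPM cut. The 5th percentile of Tac1 runs from 0 to 199.7 CPM and lies above the cut in 8 libraries.

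Neurons were clustered with the members left out, separately in labelled and added libraries, and clusters were named from marker genes that exclude the members. Levels by cluster are a description, with no test, given as the mean ± SD of summed CPM over those DRG samples that held 3 or more of its neurons. The PEP3-like cluster (111 neurons, Kcng1 and Gpx3 high, 18 of 20 PEP3 markers high) was highest in all 4 members. The study picked that marker list on these samples together with the members, so the list and the members are not independent. The cluster held 2706 ± 836 CPM of Tac1, 4576 ± 1032 CPM of Calca, 1328 ± 406 CPM of Calcb and 1223 ± 506 CPM of Scg2 (n = 11). Every neuron of this cluster had at least 1000 CPM of both Tac1 and Calca. The lowest sample in the cluster had 1921 CPM of Tac1, above the highest sample of every cluster but 2: the glia-rich cluster reached 2277 CPM and the SST-like cluster of the added libraries 1932 CPM.

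Outside that cluster the order differed between members. Tac1 came next in a labelled cluster high in glial genes, which was left unnamed (1440 ± 592 CPM, n = 7), in the Sst-rich SST-like cluster (1275 ± 266 CPM, n = 8) and in the SST-like cluster of the added libraries (1084 ± 436 CPM, n = 6). These means lie within 1 SD of their neighbours and their order is not resolved. Tac1 was lowest in the added NP-like cluster (95.2 ± 80.0 CPM, n = 7), the non-peptidergic nociceptors, within 1 SD of the unnamed Cav1 and Cd7 clusters (109.1 and 109.3 CPM). The NP-like cluster of the labelled libraries, led by Mrgprb4, held 460.6 ± 285.5 CPM of Tac1 (n = 8).

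Several clusters, the NP-like ones among them, had a low ratio of Calca to Calcb. In the added NP-like cluster Calcb (609.1 ± 114.6 CPM) was close to Calca (554.4 ± 110.4 CPM), a Calca to Calcb ratio of 0.914 ± 0.087 with no sample above 0.978 (n = 7). The labelled NP-like cluster had a ratio of 1.42 ± 0.40 (n = 8), and the unnamed added clusters led by Cav1 and Rbp2 had 1.34 ± 0.41 (n = 7) and 1.35 ± 0.23 (n = 6). The added NF-like cluster had 1.68 ± 0.57 (n = 5) and the Shox2 NF-like cluster 1.77 ± 1.14 (n = 12), while the S100a16 NF-like cluster had 4.57 ± 1.33 (n = 15). In the PEP3-like cluster the ratio was 3.52 ± 0.43 (n = 11) and in the PEP1-like cluster 7.04 ± 2.50 (n = 15). The samples of the NP-like clusters (highest 1.98) lay below those of the PEP1-like and PEP3-like clusters (lowest 2.80), while the NP-like clusters overlapped each other, as did PEP1-like and PEP3-like. PEP2-like samples ran from 0.958 to 17.3.

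Calca was several times higher than Tac1 in one NF-like cluster. This cluster, led by S100a16, was called NF-like from Nefh, Nefl and Ntrk3, neurofilament and neurotrophin receptor genes of A-fiber neurons (84 neurons, 3 of 8 NF markers high). It held 1276 ± 514 CPM of Calca and 203.4 ± 111.3 CPM of Tac1, a Calca to Tac1 ratio of 8.13 ± 4.66 (n = 15, lowest 3.29). At the 1000 CPM cut, 37 of its 84 neurons were positive for Calca alone and 2 for Tac1 and Calca. The other NF-like cluster, led by Shox2, had 368.5 ± 123.1 CPM of Calca and 312.6 ± 175.8 CPM of Tac1 (n = 12). The NF-like cluster of the added libraries was close to it in Calca (356.9 ± 80.9 CPM, n = 5).

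On average Tac1 was above Calca in a small cluster led by Foxp2, Penk and the cold channel gene Trpm8, which was left unnamed. It held 916.5 ± 338.4 CPM of Tac1, 556.5 ± 352.7 CPM of Calca and 53.5 ± 40.7 CPM of Calcb, the lowest Calcb of any cluster (n = 5, 29 neurons). Its Calca to Tac1 ratio was 0.720 ± 0.602, with a highest sample of 1.73, and the Il31ra-rich SST-like cluster was next at 0.825 ± 0.289 with a highest sample of 1.38 (n = 12), so Calca exceeded Tac1 in some samples of both. Scg2 was lowest in the PEP2-like cluster (97.2 ± 58.4 CPM, n = 16), where Tac1 was 369.4 ± 272.1 CPM and Calcb 104.1 ± 115.7 CPM.

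**Figure D2:**
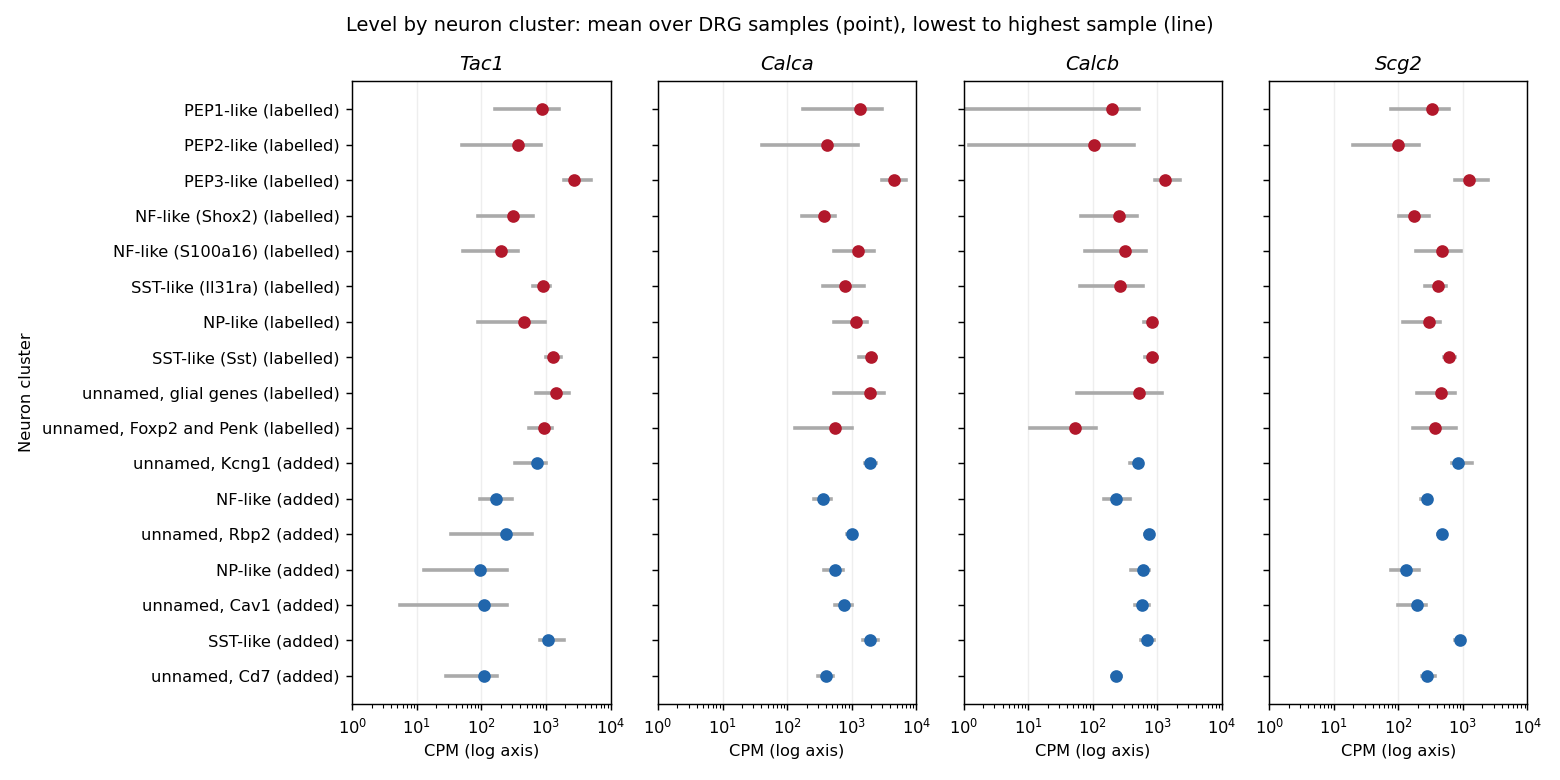
Level of each member by neuron cluster: points are means over the DRG samples that held 3 or more of its neurons, lines run from the lowest to the highest sample, and the CPM axis is logarithmic (a sample at 0 is drawn at 1). The PEP3-like cluster has the highest mean of all 4 members, 2706 CPM for Tac1 and 4576 CPM for Calca.

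Substance P and CGRP genes were largely found at high levels in the same neurons. At 100 CPM, 96.4% ± 9.5 of Tac1-positive neurons of a sample were also Calca positive (23 samples, 1128 of 1147 neurons), but 95.3% of all neurons were Calca positive at that cut, so the overlap is close to what the share of Calca alone gives. At 1000 CPM, 87.5% ± 10.9 of Tac1-positive neurons were Calca positive, against 46.1% of all neurons in the same 18 samples, each with at least 5 Tac1-positive neurons. The reverse was less complete, since 53.0% ± 19.4 of Calca-positive neurons were Tac1 positive (22 samples). At this cut 238 of 1433 neurons were positive for Calca alone, 191 for Tac1 and Calca, 75 for all 4 members, 45 for Tac1 alone and 683 for none.

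Calca was also high in most neurons high in Calcb or Scg2. Of Scg2-positive neurons at 1000 CPM, 95.0% ± 7.6 were Calca positive (13 samples, 132 of 139 neurons), and of Calcb-positive neurons 85.3% ± 18.0 were (13 samples, 166 of 183 neurons). Of all neurons in the same samples, 49.8% and 50.6% were Calca positive. The share among Calcb-positive neurons was 40% in its lowest sample. Of the 75 neurons positive for all 4 members, 58 belonged to the PEP3-like cluster. Calcb was positive alone in 16 neurons, 7 of them in the added NP-like cluster.

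**Figure D3:**
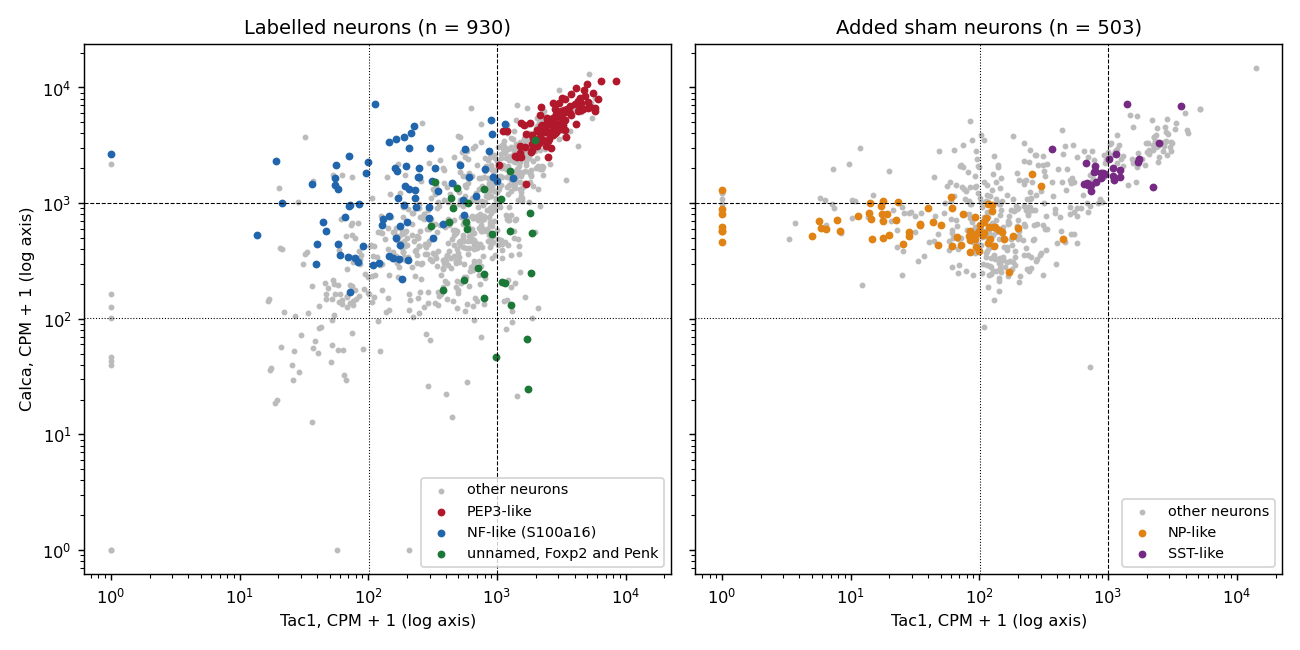
Tac1 against Calca in single neurons, both as CPM + 1 on logarithmic axes, for 930 labelled and 503 added sham neurons; dotted lines mark 100 CPM and dashed lines 1000 CPM. PEP3-like neurons fill the upper right, S100a16 NF-like neurons lie high in Calca and low in Tac1, and added NP-like neurons spread over Tac1 at one level of Calca.

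Across the cells of a sample, Tac1 and Calca on the log2(CPM + 1) scale had a Pearson correlation of 0.67 as the median over 23 samples (from 0.19 to 0.82). The medians were 0.66 for Calca and Scg2, 0.61 for Calca and Calcb, 0.55 for Tac1 and Scg2, 0.45 for Calcb and Scg2 and 0.38 for Tac1 and Calcb (from -0.05 to 0.73). Cells of a sample share a library and differ in depth, and these values are descriptions. The correlation with total UMIs had a median of -0.12 for Tac1, -0.27 for Calca, 0.04 for Calcb and 0.15 for Scg2. For correlations within a cluster the cells of all samples were pooled, so differences between libraries enter these values and were not separated. Pooled in this way, Tac1 and Calca followed each other in PEP3-like neurons (0.79, 111 cells). They did so less in S100a16 NF-like neurons (0.27, 84 cells) and the added Rbp2 cluster (0.17, 81 cells). The pooled correlation was negative in the Foxp2 and Penk cluster (-0.26, 29 cells) and in the added NP-like cluster (-0.15, 76 cells), and its sign within single samples was not examined.

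Of 12332 other genes with a UMI in at least 10% of neurons, Calca was the gene most like Tac1 by this measure, followed by Fgf13 (median 0.60), Lamp5 (0.60), Clu (0.58) and Fcgrt (0.56). The list for Calca was Tac1, Scg2, Tmem176b (0.63), Calcb and Atp1b3 (0.55). For Calcb it was Calca, the complement regulator gene Cd55 (0.58), Rarres1 (0.57), Atp1b3 (0.56) and Ldb2 (0.54), with Tac1 only at rank 62. For Scg2 it was Calca, Rit2 (0.64), Fstl1 (0.59), Gstm7 (0.57) and Ngfr (0.56), the low-affinity neurotrophin receptor. Lamp5, Fgf13, Atp1b3, Cd55, Rarres1, Ldb2, Rit2 and Fstl1 stand on the marker list that the study picked together with the members.

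Other peptides were set against the members at the same cut. The PACAP gene Adcyap1 reached 100 CPM in 85.7% ± 10.9 of neurons with at least 1000 CPM of Tac1 and in 53.5% ± 30.2 of the rest, with a higher share in 16 of 18 samples. For Sst the shares were 21.5% ± 14.1 of Calca-high neurons and 4.86% ± 5.77 of the rest, higher in 21 of 22 samples. Galanin (Gal) did not separate Tac1-high neurons, at 75.9% ± 35.4 against 72.7% ± 40.3 and higher in 9 of 18 samples. Vip was at 37.8% ± 20.2 against 47.1% ± 26.1 and higher in 4 of 18 samples. The samples counted include added sham libraries, whose mean level was 7.36 CPM for Gal and 13.1 CPM for Vip, below the 100 CPM cut. Shares for the labelled samples alone were not examined. These shares rest on the cell mix of each sample and were not tested.

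The design asks whether the members changed after nerve crush. Over all labelled neurons no member passed the test at any day (edgeR quasi-likelihood test on counts summed per DRG sample, Benjamini-Hochberg adjustment over 14239 genes, threshold 0.05), and the share of all genes called was 0% at each day. The labelled sham was itself high in injury genes, so these tests do not set SNC against neurons low in them. The 3 comparisons share the sham samples. At an unadjusted p under 0.05 there were 1243 genes at 1 d (8.73%), 594 at 3 d (4.17%) and 476 at 7 d (3.34%), none of them a member, and DESeq2 called 9, 1 and 0 genes.

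Tac1 in the sham samples was 325.5, 481.5, 817.4 and 1112 CPM (replicates 1, 2, 3 and 4), a mean of 684.2 ± 351.6. At SNC 1 d it was 1081, 1139, 674.4 and 850.4 CPM, at 3 d 1043, 921.3 and 553.4 CPM, and at 7 d 505.7, 525.2, 641.1, 429.8 and 649.4 CPM. All groups overlapped the sham range. The log2 fold change was 0.41 ± 0.29 (SE) at 1 d, 0.28 ± 0.31 at 3 d and -0.35 ± 0.27 at 7 d (edgeR adjusted p = 0.70, 0.98 and 1.0).

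Calca followed Tac1 in its order of group means. It was 290.8, 1106, 1169 and 2070 CPM in the sham samples, and 2222, 1778, 1225 and 1498 CPM at 1 d, with group means of 1159 ± 727 and 1681 ± 426. At 3 d it was 1794, 1438 and 881.7 CPM (1371 ± 460), and at 7 d 756.4, 693.8, 1125, 711.3 and 995.9 CPM (856.4 ± 193.0). The SNC samples all lay within the sham range except SNC 1 d replicate 1, the highest of the series. The log2 fold changes were 0.50 ± 0.37, 0.23 ± 0.40 and -0.46 ± 0.35 (edgeR adjusted p = 0.71, 0.99 and 1.0).

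Calcb was 27.98, 488.1, 385.9 and 736.2 CPM in the 4 sham samples, wider than the 222.5 to 575.8 CPM over all SNC samples, and its log2 fold changes were -0.07 ± 0.52, 0.09 ± 0.56 and -0.52 ± 0.49. Scg2 had group means of 371.4 ± 147.5 (sham), 402.7 ± 111.4 (1 d), 393.3 ± 85.6 (3 d) and 340.2 ± 68.7 CPM (7 d). Exact two-sided permutation tests gave p from 0.23 to 0.97 over these 12 comparisons of members with sham, where the smallest p the design allows is 0.0286 at 1 d, 0.0571 at 3 d and 0.0159 at 7 d. Without sham replicate 1 and the SNC 7 d sample of 2 libraries, Calca at 7 d was -0.72 on the log2 scale and Calcb -0.84, neither called (edgeR adjusted p = 0.99 for each). In the study's sample sheet the samples left out were the only labelled ones with the earlier of its 2 sequencing dates. The part of that date in their levels was not tested.

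The study's sample sheet dates reverse transcription to an earlier or a later year, unevenly spread over the groups. The earlier year held sham replicates 1, 2 and 3 and the later year sham replicate 4 and all SNC 1 d and 3 d samples. The sham sample of the later year had 1112 CPM of Tac1, within the 674.4 to 1139 CPM of the SNC 1 d samples, and 2070 CPM of Calca, within their 1225 to 2222 CPM. With the year as a term the SNC 1 d log2 fold change was 0.16 for Tac1 and 0.18 for Calca. Blocking by the reverse transcription date, an alternative added after seeing the data that left 3 residual degrees of freedom, called no member in edgeR. No sham sample shares a date with an SNC 1 d or 3 d sample. At those days the block compares with sham only through SNC 7 d samples. For Tac1 and Calca the values were 0.33 and 0.26 at 1 d, -0.0097 and -0.25 at 3 d and -0.11 and -0.36 at 7 d. For Calcb they were -1.01, -0.92 and -0.71 at 1, 3 and 7 d (edgeR unadjusted p = 0.017, 0.038 and 0.017). Scg2 was -0.64, -0.48 and -0.33 (edgeR unadjusted p = 0.039, 0.14 and 0.11). In the pair of SNC 7 d samples that the labels give opposite cell numbers, the one with 20 directly and 4 indirectly injured cells had 429.8 CPM of Tac1 and the one with 4 and 20 had 649.4 CPM, with no replicate of either. As means over cells, the values were closer, at 574.9 and 620.9 CPM, and for Calcb their order turned (325.9 and 316.5 CPM against 322.4 and 355.2 CPM of summed counts).

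**Figure D4:**
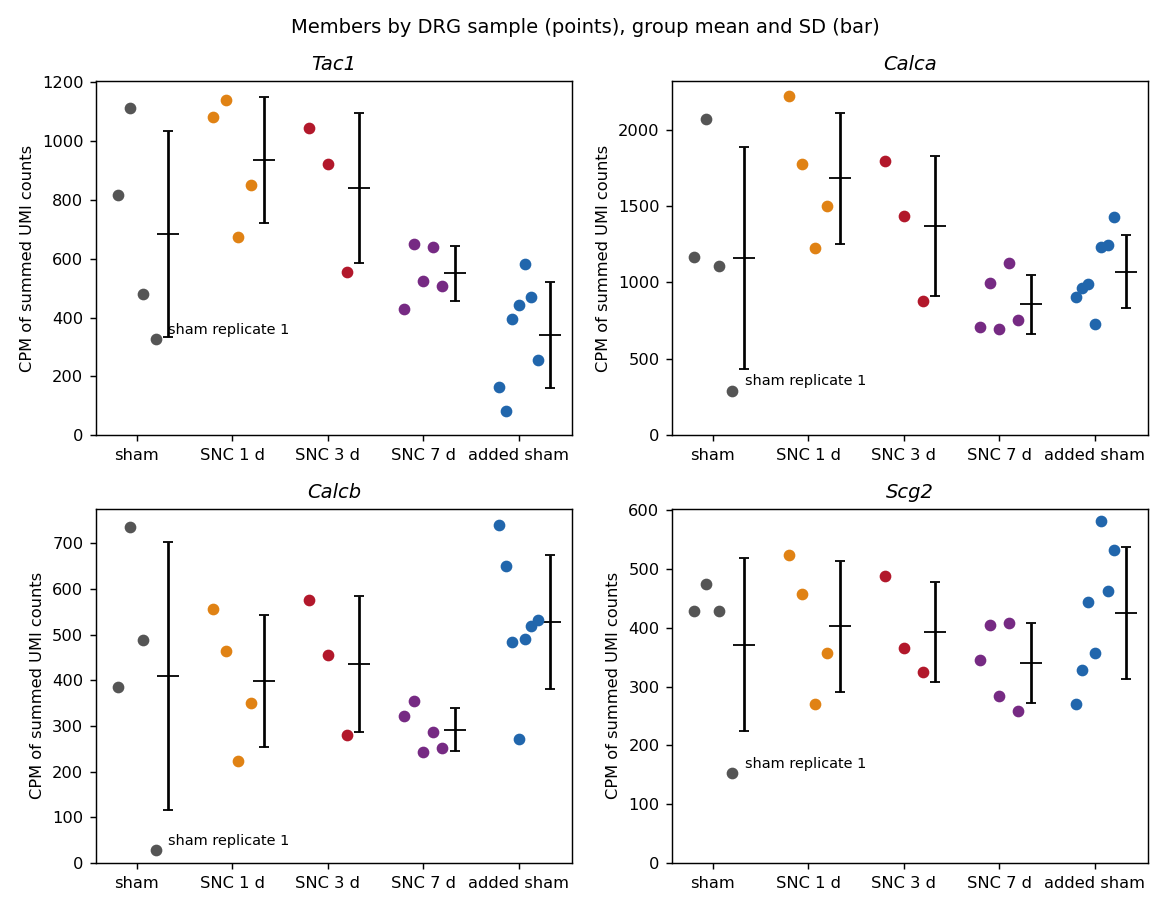
Members by group: each point is the CPM of UMI counts summed over one DRG sample, bars give the group mean and SD, and the sham sample that stood apart is named. The SNC groups overlap the sham samples for every member.

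The members were also compared within neuron classes. Counts that other cells may have lent to a class were not separated. Only 3 named classes had at least 3 cells in at least 3 samples of every group: the PEP1-like, PEP2-like and S100a16 NF-like neurons. None of 36 member tests passed (edgeR, adjusted over all genes of the class), and 9 had an unadjusted p under 0.05. Of all genes, 0.00943% were called in PEP1-like neurons at 1 d and at 3 d, and 0% in every other class and day. The background share with an unadjusted p under 0.05 at 1, 3 and 7 d was 11.6%, 6.23% and 4.73% in PEP1-like, 6.64%, 7.04% and 4.32% in PEP2-like and 2.64%, 8.76% and 4.37% in S100a16 NF-like neurons.

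The lowest unadjusted p belonged to Tac1 in the S100a16 NF-like neurons at SNC 7 d. The sham samples had 370.8, 268.1 and 275.3 CPM (replicates 2, 3 and 4, with 3, 3 and 11 neurons), and the SNC 7 d samples had 134.3, 50.9, 72.3, 57.9 and 88.4 CPM (3 to 5 neurons each). The ranges did not overlap. SNC 1 d samples lay between 250.8 and 339.2 CPM, within or just below the sham range, and SNC 3 d samples between 85.0 and 263.9 CPM, all below it. The fold change at 7 d was -1.85 ± 0.30 on the log2 scale with an unadjusted p of 6.97e-06, short of the threshold after adjustment over 10921 genes (edgeR adjusted p = 0.076).

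This value lay on either side of the threshold by tool and by 1 sample. DESeq2 gave an adjusted p of 5.45e-05 for the same counts, and without the SNC 7 d sample of 2 libraries edgeR gave -2.11 and an adjusted p of 0.014. Each other sample left out in turn gave -1.70 to -1.94 with an adjusted p of 0.16 to 0.48. Within the earlier year the sham samples had 268.1 and 370.8 CPM against 50.9 to 134.3 CPM at 7 d, and within the later year the values were 275.3 against 57.9 and 88.4 CPM. The pairs of one date were 370.8 against 50.9 CPM and 268.1 against 72.3 CPM, and with the date as a block the fold change was -2.31 (edgeR adjusted p = 0.27). The lowest cells of sham replicates 2, 3 and 4 held 21.8, 36.2 and 194.4 CPM of Tac1 (5th percentile), the last of these beside a class level of 275.3 CPM, and those of the SNC 7 d libraries 4.40 to 80.8 CPM. The part of these low counts in the result was not tested.

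For the CGRP genes in this class, Calcb was 673.1, 249.7 and 672.1 CPM in the sham samples and 76.4 to 326.9 CPM at 7 d (-1.57 ± 0.40 on the log2 scale, edgeR unadjusted p = 0.000986, adjusted p = 1.0). Calca was 924.3 to 2025 CPM in sham and 537.3 to 1315 CPM at 7 d (-0.78 ± 0.32, edgeR unadjusted p = 0.0267, adjusted p = 1.0). Both ranges overlapped. Scg2 was 404.4 to 522.5 CPM in sham and 188.0 to 627.3 CPM at 7 d.

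In the PEP-like classes the lowest unadjusted p values came at 1 d. The study had placed all 4 members in a gene module built on crushed PEP1 neurons of these samples, which it reported as raised at 1 d. Higher member levels at 1 d in these classes are therefore not independent of that earlier result. In PEP2-like neurons Tac1 was 49.8, 90.0, 372.5 and 220.3 CPM in sham and 827.7, 787.0, 374.1 and 621.4 CPM at SNC 1 d, and the ranges did not overlap (1.81 ± 0.57 on the log2 scale, edgeR unadjusted p = 0.00399, adjusted p = 0.49; exact permutation p = 0.0286, the smallest possible). All 4 SNC 1 d samples were above the one sham sample of the later year. The sham samples held 10, 14, 11 and 7 such neurons and the SNC 1 d samples 15, 19, 6 and 3. SNC 1 d replicates 3 and 4 share a batch number and a date of reverse transcription and were not merged for the class tests. Counted as 1 sample they would leave 3 against 4, where the smallest exact permutation p is 0.0571. The lowest cells of the sham samples held 16.5, 21.8, 36.2 and 194.4 CPM of Tac1 (5th percentile). Those of the SNC 1 d samples held 105.2 to 181.0 CPM. The part of these low counts in the result was not tested. Calca in PEP2-like neurons was 41.4 to 528.3 CPM in sham and 440.8 to 1233 CPM at 1 d (1.36 ± 0.49, edgeR adjusted p = 0.64). At 3 d Tac1 was 52.5 to 762.8 CPM (1.27 ± 0.59, edgeR adjusted p = 0.70). With the date as a block Tac1 at 3 d was -0.43 and Calca at 1 d was 0.095. Neither value sets SNC samples against sham samples of the same date.

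In PEP1-like neurons (7 of 12 PEP1 markers high) Calca was 175.3, 474.5, 454.6 and 1664 CPM in sham and 2909, 2353, 2341 and 840.9 CPM at 1 d (1.51 ± 0.45, edgeR adjusted p = 0.30). Sham replicate 4, the only sham sample of the later year, was the high sample and lay within the SNC 1 d range. Without it the fold change was 2.37 with an edgeR adjusted p of 0.021. That fit sets sham samples of the earlier year alone against SNC 1 d samples of the later year. Year and injury cannot be told apart in it. DESeq2 gave an adjusted p of 0.044 with all samples. Tac1 was 160.4 to 1105 CPM in sham and 708.9 to 1569 CPM at 1 d (0.85 ± 0.30, edgeR adjusted p = 0.30), and Calca at 3 d was 1037 to 1835 CPM (1.02 ± 0.47, edgeR adjusted p = 0.78). The difference of the SNC effect between classes was tested on the log2 ratio of 2 classes within a sample. Tac1 in S100a16 NF-like against PEP1-like neurons shifted by -1.86 at 7 d (exact permutation p = 0.0357, the smallest that 5 against 3 samples allow), and none of 36 such tests passed adjustment (lowest adjusted p = 0.44).

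**Figure D5:**
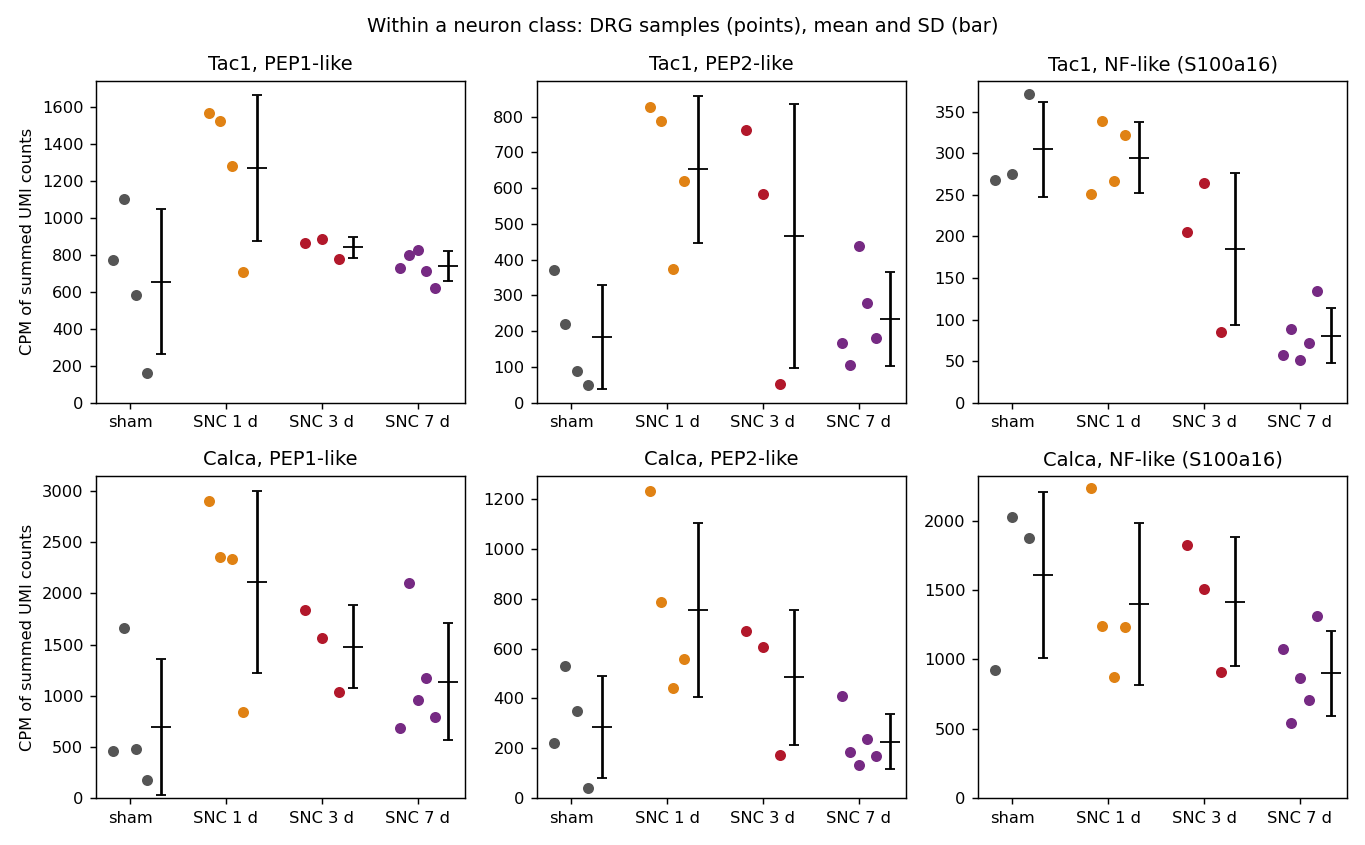
Tac1 and Calca within the 3 classes that could be tested: points are DRG samples with at least 3 neurons of the class (CPM of summed counts), bars give mean and SD. In S100a16 NF-like neurons the 5 SNC 7 d samples lie between 50.9 and 134.3 CPM of Tac1, below the 3 sham samples.

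The share of positive neurons gave no call either. At 100 CPM Tac1 was positive in 71.7% ± 21.3 of sham neurons (n = 4), 96.3% ± 1.0 at 1 d (n = 4), 91.0% ± 15.6 at 3 d (n = 3) and 74.2% ± 5.4 at 7 d (n = 5). Calca was positive in 83.8% ± 28.2 of sham neurons and in all neurons at 1 d and 3 d, where the 5th percentile of every library was above the cut. For neurons positive for both the shares were 66.5% ± 29.4, 96.3% ± 1.0, 91.0% ± 15.6 and 70.8% ± 7.8. With each neuron thinned to 20000 UMIs the Tac1 shares were 73.4% ± 22.7, 95.2% ± 5.4, 90.8% ± 16.0 and 78.3% ± 4.4. The Shox2 NF-like neurons had 7 of 8 NF markers high, and also 4 of 5 markers of putative low-threshold C-mechanoreceptors. Of these neurons 79.1% reached the cut for Tac1, so a share at 100 CPM is not read as a share of peptidergic neurons. Over 15 exact two-sided permutation tests the lowest p was 0.14 and the lowest adjusted p 0.71. At 1000 CPM Calcb was positive in 18.3% ± 14.8 of sham and 5.83% ± 2.72 of SNC 7 d neurons (exact permutation p = 0.11, adjusted p = 0.61).

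The added sham libraries differed from the labelled sham samples at 40.6% of 15791 genes (6415 genes, edgeR adjusted p under 0.05), and 0 of 4 members passed. Tac1 alone of the members had an unadjusted p under 0.05, as did 49.5% of genes, and DESeq2 called 7237 genes. Tac1 was 162.6, 83.2 and 255.9 CPM in the libraries labelled day 0 (replicates 1, 2 and 7), 393.8 and 470.3 CPM at day 1, 441.5 CPM at day 3 and 582.9 CPM at day 7. All day 0 values were below all later ones and below every labelled sham sample. The fold change over all 7 libraries was -1.13 ± 0.43 on the log2 scale (edgeR adjusted p = 0.052, exact permutation p = 0.079), and DESeq2 gave an adjusted p of 0.016.

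At 100 CPM the Tac1-positive share was 13.6% and 13.0% in added replicates 1 and 2, 37.5% in replicate 7 and 78.1% to 100% in the others. The 5th percentile of Tac1 over cells was 5.50, 0 and 35.8 CPM in replicates 1, 2 and 7 and 66.5 to 133.7 CPM in the others. At 1000 CPM the shares were 6.82%, 6.52% and 8.33% against 9.30% to 27.4%. The part of the low counts in the split at 100 CPM was not tested. Calca showed no such split, with 905.2, 966.3 and 1428 CPM at day 0 and 730.6 to 1244 CPM later (-0.24 ± 0.34, edgeR adjusted p = 0.60). Without sham replicate 1 it was -0.61 (adjusted p = 0.049). Calcb was highest in replicates 1 and 2 (740.5 and 651.4 CPM, 0.26 ± 0.53 over all, adjusted p = 0.73), and Scg2 lowest there (269.9 and 327.9 CPM, 0.07 ± 0.26, adjusted p = 0.84).

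Genes of the same pathway were examined as lists. After SNC no gene of the lists of related ligands (6 of 8 tested), receptors (5 of 9), processing enzymes (7 of 8), granule proteins (11 of 11), peptide breakdown (2 of 3) or injury genes (7 of 8) was called at any day by edgeR, and at most 2 genes of a list had an unadjusted p under 0.05, beside 8.73%, 4.17% and 3.34% of all genes at 1, 3 and 7 d. The ligand list holds Tac1, Calca and Calcb, and the granule list holds Scg2. The median log2 fold change of the granule list was 0.09, 0.07 and -0.01 at 1, 3 and 7 d, beside medians of -0.0059, -0.0049 and -0.0061 over all genes tested. Abundant list members were the granule genes Scg3 (555.0 CPM as the mean over samples) and Resp18 (487.1 CPM), carboxypeptidase E (Cpe, 436.3 CPM), which trims peptide precursors, Scg5 (380.4 CPM), a helper of prohormone convertase 2, and that convertase itself, Pcsk2 (277.1 CPM). 

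Most receptor genes had low counts in the neurons themselves. Whether the annotated gene ends capture their 3′ reads was not tested. Tacr1, the neurokinin 1 receptor gene, was at 0.0013 CPM and Ramp1 at 0.35 CPM as means over samples, with Calcrl at 4.06, Tacr3 at 0.96, Tacr2 at 0.14 and Calcr at 0.15 CPM. Ramp2 was at 11.3 CPM, Ramp3 at 42.2 CPM and Crcp, a CGRP receptor component also used by RNA polymerase III, at 105.0 CPM. The breakdown enzymes Mme (3.05 CPM), Ece1 (2.76 CPM) and Ace (0.11 CPM) were also low. Other family ligands were low in labelled neurons, with Tac3 at 4.15 and Iapp at 2.68 CPM in sham.

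Against the labelled sham, where 40.6% of all genes were called, the lists had 1 of 7 ligands, 0 of 5 receptors, 1 of 7 processing enzymes, 3 of 11 granule proteins, 0 of 2 breakdown enzymes and 7 of 7 injury genes called. The added libraries were higher in Iapp (3.50 on the log2 scale, edgeR adjusted p = 0.025), Furin (2.32, adjusted p = 0.000167), a convertase of the secretory pathway, and the granule release factor Cadps (1.09, adjusted p = 0.015). They were lower in Ptprn (-0.64, adjusted p = 0.018) and Resp18 (-0.48, adjusted p = 0.031), both granule proteins. The 7 injury genes were all lower, among them Gal (-7.49, edgeR adjusted p = 4.56e-05) and Sprr1a (-12.22, adjusted p = 9.67e-07).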

How the data were processed

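The deposited files hold UMI counts per gene and cell, one table per library, which the authors made from 3′ reads of a modified Smart-seq2 protocol on pooled, barcoded cells, with UMI-tools, STAR, SAMtools and featureCounts (Subread) against Rnor_6.0 per the labels. UMI counts are not normalized. Such counting removes PCR copies, but single cells were amplified before pooling.

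No 2 cells held identical values, and no doublet caller was run on these hand-picked cells. Cells were filtered as in the report and clustered with Seurat 5.3.0 (2000 variable genes, 40 components, resolution 0.5) without the members. Counts were summed per DRG sample and tested with edgeR 4.0.16 (TMM, filterByExpr), all 4 labelled groups in one fit and the added libraries apart. The standard error was taken from the fold change and its F statistic. The script was tested on simulated data. Alternatives used DESeq2 1.42.0 and limma 3.58.1. Single values used exact permutation tests (scipy 1.17.1). For thinning, cells with under 20000 UMIs were left out (9 to 14 per group).

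The members and gene lists were chosen with earlier results of these data known. Named were the members, list genes with an adjusted p under 0.05, otherwise the 3 most abundant of a list, all receptors, and the 5 genes most like each member. Class values are those with an unadjusted p under 0.05. Replicates are numbered in accession order and are not paired by number. A block by reverse transcription date was added after seeing the data.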

Additional observations from a re-analysis of the deposited data

Results flagged for a closer look

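Among 67 groups of 4 to 7 samples searched for a sample far from the rest, 7 values stood out, and chance alone flags about 1 group in 20. Sham replicate 1 was far below the other sham samples in Scg2 (152.4 CPM of summed counts), in the share of neurons positive for Calca (41.7%) and in the share positive for Scg2 (33.3%). At SNC 1 d replicate 1 had 97.9% of neurons positive for Tac1, and the same 97.9% for Tac1 with Calca, where the other 3 samples were at 95.8%. At SNC 7 d Calcb was high in PEP1-like neurons of replicate 6 (333.3 CPM) and in PEP2-like neurons of replicate 5 (428.9 CPM) (5 and 3 such neurons).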

How the results depend on the processing

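Replicate numbers follow accession order and pair no samples, so no analysis was paired by replicate number. Some samples share a date of reverse transcription, and a block by that date, added after seeing the data, called 1, 3 and 0 genes at 1, 3 and 7 d. No sham sample shares a date with an SNC 1 d or 3 d sample, so at those days the block holds no direct comparison with sham. The block gave Tac1 at 3 d -0.0097, Calca at 3 d -0.25, Calcb at 3 d -0.92, Scg2 -0.64 at 1 d and -0.48 at 3 d, and Tac1 in PEP2-like neurons at 3 d -0.43, none called. With samples left out set aside, 42 main results under another setting held and 10 moved. Over all labelled neurons the genes called rose from 0 to 9 with DESeq2 and 1 when the reverse transcription year was a term at 1 d, and to 1 at 3 d with DESeq2, without the low-count filter, with the year term or with each cell weighted the same. Leaving out each sample in turn gave 0 at 1 d, 0 to 1 at 3 d, 0 at 7 d, 5051 to 6403 genes for the added libraries and, within classes, 0 to 1 member. The within-class count of 0 became 2 with DESeq2 and 1 without sham replicate 1 and SNC 7 d replicates 1 and 2, an exclusion chosen after seeing the data, as was 1000 CPM. A minimum of 5 cells could not be fitted in S100a16 NF-like neurons.

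Several small fold changes, none called, turned sign, and the cause was not tested. With the year term Calca at 3 d was -0.084, Calcb at 3 d -0.38, Scg2 at 1 d -0.16 and at 3 d -0.17. Without the named samples they were -0.078, -0.30, -0.16 and -0.17. After thinning Calcb at 3 d was -0.038 and Scg2 at 1 d -0.066. With equal cell weights Tac1 was 1.10 at 1 d (edgeR 0.41; limma unadjusted p = 0.033, adjusted p = 0.26) and 0.89 at 3 d, Calca was 1.31 (unadjusted p = 0.044, adjusted p = 0.28) and 1.09, and Calcb was 1.39 at 1 d and 0.17 at 7 d and Scg2 0.47 at 7 d, where the median of all genes moved by up to 0.30. With paired DRG batches merged Calcb at 1 d was 0.076. In the added libraries Calca was 0.93 with equal cell weights, Scg2 -0.046 after thinning, and Calcb -0.46 and Scg2 -0.10 without sham replicate 1 and the day 0 libraries. Tac1 there was called with DESeq2 size factors (-1.20), after thinning (-1.14), without those libraries (-0.94) and without sham replicate 1 or 2 or added replicate 2 or 5.

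Leaving out each sample in turn, Tac1 ran from 0.20 to 0.74 at 1 d, 0.066 to 0.60 at 3 d and -0.57 to -0.027 at 7 d, Calca from 0.19 to 0.93, -0.078 to 0.67 and -0.78 to -0.032, Calcb from -0.45 to 0.38 at 1 d, -0.30 to 0.53 at 3 d and -0.90 to -0.071 at 7 d, and Scg2 from -0.16 to 0.23, -0.17 to 0.20 and -0.40 to -0.030. In the added libraries Calca ran from -0.61 to 0.19, Calcb from -0.19 to 0.70 and Scg2 from -0.23 to 0.19.

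Differences in positive share at 7 d, in percentage points, turned to 4.15 for Calcb at 30 CPM, to -0.407, -0.749 and -1.07 for Tac1, Calca and Scg2 at 300 CPM, and at 1000 CPM to -2.13, -10.2 and -2.39, with -2.88 for Tac1 with Calca. At 1000 CPM Calcb was -6.22 at 1 d and -0.718 at 3 d and Scg2 -0.471 at 1 d. Leaving out samples, the 7 d differences ran from -4.82 to 11.8 for Tac1, -5.82 to 13.6 for Calca, -16.5 to 12.7 for Calcb, 1.66 to 17.5 for Scg2 and -8.16 to 15.5 for Tac1 with Calca. At 1 d they ran from -0.480 to 28.7 for Calcb and -0.785 to 15.1 for Scg2, and at 3 d from -5.14 to 24.0 for Calcb. The lowest adjusted p of these share tests ran from 0.286 to 0.996 (exact permutation tests).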
